A study of Mus musculus with 27 samples.

Results

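The GABA receptor subunits described here are 7 genes of the 22340 in the count table, taken by symbol: the GABA-A subunits Gabra2, Gabra4, Gabra5, Gabrb2 and Gabrd, and the GABA-B subunits Gabbr1 and Gabbr2. All 7 passed the filter on low counts. They were read across 27 RNA-seq libraries of mouse cerebral cortex from a stroke model, in 9 groups of 3. In C57BL6 mice of 7 to 8 weeks the right middle cerebral artery was blocked with a suture for 35 min, with the common carotid artery tied, and blood flow was then restored for 3, 6, 12 or 24 h. Ipsilateral cortex, on the side of the occlusion, was taken at 3, 6, 12 and 24 h of reperfusion. It is set against contralateral cortex, from the other side at the same 4 times, and against sham cortex. Sham mice had anaesthesia and exposure of the arteries but no suture. No transgene is named for any group. The replicates of a group came from different days of surgery. The labels do not state the hemisphere or the time of the sham samples, or whether the ipsilateral and contralateral samples of one number came from one animal.

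GABA is the main inhibitory transmitter of the cortex. GABA-A receptors are chloride channels built from several subunits around a pore, in most cases alpha and beta subunits with a gamma or a delta subunit. The alpha subunit sets much of the receptor's drug response and location, and receptors with the delta subunit, encoded by Gabrd, lie outside synapses and carry tonic inhibition. Gabra5 encodes an alpha subunit also known for tonic currents, Gabra4 one that often joins delta, Gabra2 one of synapses, and Gabrb2 a main beta subunit of cortex. GABA-B receptors are obligate pairs of the proteins of Gabbr1, which binds GABA, and Gabbr2, which couples to G proteins and brings the pair to the cell surface. They open Kir3 potassium channels and close calcium channels.

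On GRCm38 with GENCODE M21 gene models, Gabbr1 lies on the plus strand of chr17:37045966-37075067 and Gabbr2 on the minus strand of chr4:46662305-46991873. Gabrd is at chr4:155384980-155398112, Gabra5 at chr7:57407672-57510059, Gabra2 at chr5:70957597-71095849 and Gabra4 at chr5:71569749-71658308, all on the minus strand. Gabrb2 is on the plus strand of chr11:42419757-42629028. The counts are per whole gene and do not separate exons from UTRs or isoforms. Exons of Gabra5 share 148 bases, 4.98% of their length, with the antisense gene Gm9962, and exons of Gabra4 share 46 bases, 0.756%, with Gabrb1 on the other strand. Whether the counting used strand is not given in the sources used here, so reads from these stretches cannot be told apart.

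RefSeq promoter windows on GRCm38.p6, from 250 bases before to 50 after a start, were found for 6 of the 7 genes, with 3 windows for Gabrb2 and none for Gabrd. The windows of Gabbr1 and Gabbr2 are shown because the ratio of these paired GABA-B subunits did not overlap between the sides at 12 h and 24 h. The exact permutation p of that ratio was 0.1 at both times, and 0.2 after Benjamini-Hochberg adjustment. The window of Gabra5 is shown because it was the only alpha subunit among the 7 called lower than in contralateral cortex at 24 h. Gabra3, an alpha subunit outside the 7, was called lower there too. Capitals mark GC boxes (GGGCGG, both strands). The Gabbr1 window is chr17:37045716-37046015 on the plus strand, the Gabbr2 window chr4:46991665-46991964 and the Gabra5 window chr7:57510010-57510309, both on the minus strand.
Gabbr1: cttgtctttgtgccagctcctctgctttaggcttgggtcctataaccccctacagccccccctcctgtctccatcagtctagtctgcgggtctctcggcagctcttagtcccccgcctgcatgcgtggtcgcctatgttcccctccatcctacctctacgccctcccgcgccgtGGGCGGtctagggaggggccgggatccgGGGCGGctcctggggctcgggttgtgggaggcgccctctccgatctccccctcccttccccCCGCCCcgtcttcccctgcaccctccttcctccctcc
Gabbr2: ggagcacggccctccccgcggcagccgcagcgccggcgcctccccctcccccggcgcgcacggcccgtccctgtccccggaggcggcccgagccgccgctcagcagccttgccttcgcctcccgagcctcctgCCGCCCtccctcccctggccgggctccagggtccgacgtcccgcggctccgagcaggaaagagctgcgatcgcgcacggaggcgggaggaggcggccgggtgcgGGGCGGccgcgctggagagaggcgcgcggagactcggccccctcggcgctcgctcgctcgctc
Gabra5: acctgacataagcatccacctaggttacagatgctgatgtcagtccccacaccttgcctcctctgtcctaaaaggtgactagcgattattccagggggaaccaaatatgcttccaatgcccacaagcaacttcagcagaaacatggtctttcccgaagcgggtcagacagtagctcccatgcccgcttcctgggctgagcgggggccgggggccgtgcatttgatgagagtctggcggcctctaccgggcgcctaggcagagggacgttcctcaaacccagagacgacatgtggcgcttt
The Gabbr1 window holds 3 GC boxes, with 18 CpG and a GC content of 67.3%. The Gabbr2 window holds 2, with 46 CpG and 80.3% GC. The Gabra5 window holds none, with 13 CpG and 56.7% GC. A GC box was present in 5 of the 8 windows of these genes and in 35.7% of 32851 mouse promoter windows. A cAMP response element (TGACGTCA) was in none of the 8 and in 1.79% of all windows. Its shorter core (TGACG), which lies within the full element, was in 1 of the 8, a Gabrb2 window, and in 20.8% of all. The EGR motif (GCGTGGGCG) was in none of the 8 and in 0.612% of all, and TATAAA was in 1 of the 8, again of Gabrb2, and in 13.6% of all. These matches describe letters in the windows, searched on both strands, and are not evidence of binding.

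Library totals ran from 26505996 to 48830897 counts, and every level below is in CPM, the count relative to a library size adjusted with edgeR's TMM method. Genes of mitochondrial rRNA took between 24.4% and 40.4% of the counts. Pan-neuronal and excitatory markers were high in every library, with summed levels of 4859 to 7631 CPM for 16 neuron markers and 1681 to 3001 CPM for 12 excitatory markers. Markers of striatal neurons summed to between 187 and 702 CPM and choroid plexus markers to between 4.81 and 745 CPM. Contralateral 3 h replicate 1 and ipsilateral 24 h replicate 1 stood apart from the other libraries of their groups, with 36.7% and 40.4% of counts in mitochondrial rRNA against 24.4% to 25.9% and 27.7% to 28.0%. Smaller gaps were seen at 12 h. Ipsilateral replicate 3 was at 33.9% there, against 28.4% and 26.4%, and contralateral replicate 1 at 33.3%, against 26.9% and 30.2%. In contralateral 3 h replicate 1, Gabra2, Gabrb2 and Gabra4 were 1.06, 0.75 and 0.71 above the mean of the other 2 libraries on the log2 scale. In that library Gabra5 was at 0.37, Gabbr1 at 0.01, Gabbr2 at -0.66 and Gabrd at -0.29. The longest coding transcripts of Gabra2, Gabra4, Gabrb2 and Gabra5 have a GC content of 38.4%, 42.2%, 44.0% and 47.1%. Those of Gabbr1, Gabbr2 and Gabrd have 53.0%, 56.0% and 56.8%. In ipsilateral 24 h replicate 1, Gabra5 was at -0.49 against the other 2 libraries and Gabrb2 at 0.30. The other subunits are given in CPM for replicate 1 against replicates 2 and 3. Gabra2 had 14.9 against 14.9 and 13.7, and Gabra4 83.6 against 83.4 and 95.1. Gabrd had 40.1 against 39.9 and 37.5, Gabbr1 545.5 against 479.7 and 534.8, and Gabbr2 287.1 against 301.4 and 360.5. Contralateral 24 h replicate 3 was low in Gabra2, at -1.24, and in Gabrb2, at -0.49. The summed striatal markers of the contralateral 3 h libraries were 554, 189 and 190 CPM and those of the contralateral 24 h libraries 355, 375 and 189 CPM, in replicate order. Gabra2 had 42.5, 19.4 and 21.3 CPM, and 18.7, 25.2 and 9.31 CPM, in these libraries. At both times Gabra2 was highest and lowest in the same libraries as the striatal sum, though the sums of 3 h replicates 2 and 3 were nearly equal. The other groups had these ranges of the striatal sum and of Gabra2, in CPM. Sham cortex had 319 to 499 and 19.2 to 23.8. Contralateral cortex had 265.5 to 560 and 16.6 to 27.2 at 6 h, and 205 to 544 and 21.6 to 24.9 at 12 h. Ipsilateral cortex had 254 to 702 and 18.25 to 22.5 at 3 h, and 220 to 420 and 17.5 to 24.15 at 6 h. At 12 h it had 249 to 393 and 17.7 to 18.6, and at 24 h 187 to 405 and 13.7 to 14.9. The order of libraries in these groups is not set out here. The part of tissue composition, of the rRNA share and of GC content in the subunits' values was not tested.

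Ipsilateral cortex had lower levels of 3 of the 7 subunits at 24 h of reperfusion than contralateral cortex: Gabbr1, Gabrd and Gabra5 fell by 31.2%, 28.7% and 29.2%. Of all 18087 genes tested, 9.36% were called lower in that comparison (edgeR quasi-likelihood test, Benjamini-Hochberg adjusted over all genes tested, threshold 0.05) and 19.1% were called in either direction. All 7 subunits had negative log2 fold changes at 24 h, with a median of -0.38 against 0.03 for all genes tested. At 12 h, 2 of the 7 were called lower, Gabbr1 and Gabrd, where 4.3% of all genes were called lower and 12.2% in either direction. At 6 h 1 of the 7 was called lower, Gabbr1, where 2.14% of all genes were called lower and 7.99% in either direction. With contralateral 3 h replicate 1 and ipsilateral 24 h replicate 1 left out of the fit, the counts were 2, 5 and 4 of the 7 at 6, 12 and 24 h, all lower, beside 2455, 3468 and 3812 of all genes called in either direction, against 1445, 2214 and 3455 with every library: Gabbr2 was added at 6 h, Gabra4, Gabra5 and Gabrb2 at 12 h, and Gabra4 and Gabrb2 at 24 h, where Gabra5 was lost (adjusted p = 0.0513). Neither left-out library belongs to the 6 h or 12 h groups, so there the same libraries were compared and only the shared fit changed. With the replicate number as a block, 1, 4 and 4 of the 7 were called lower at 6, 12 and 24 h, beside 1679, 2497 and 3825 of all genes called in either direction. At 3 h none was called, where 0.249% of all genes were called in either direction. At 3 h 1 member, Gabra5, had an unadjusted p under 0.05, and DESeq2 also called 0. The groups are bulk tissue, in which fewer neurons and less RNA per neuron cannot be told apart.

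**Figure D1:**
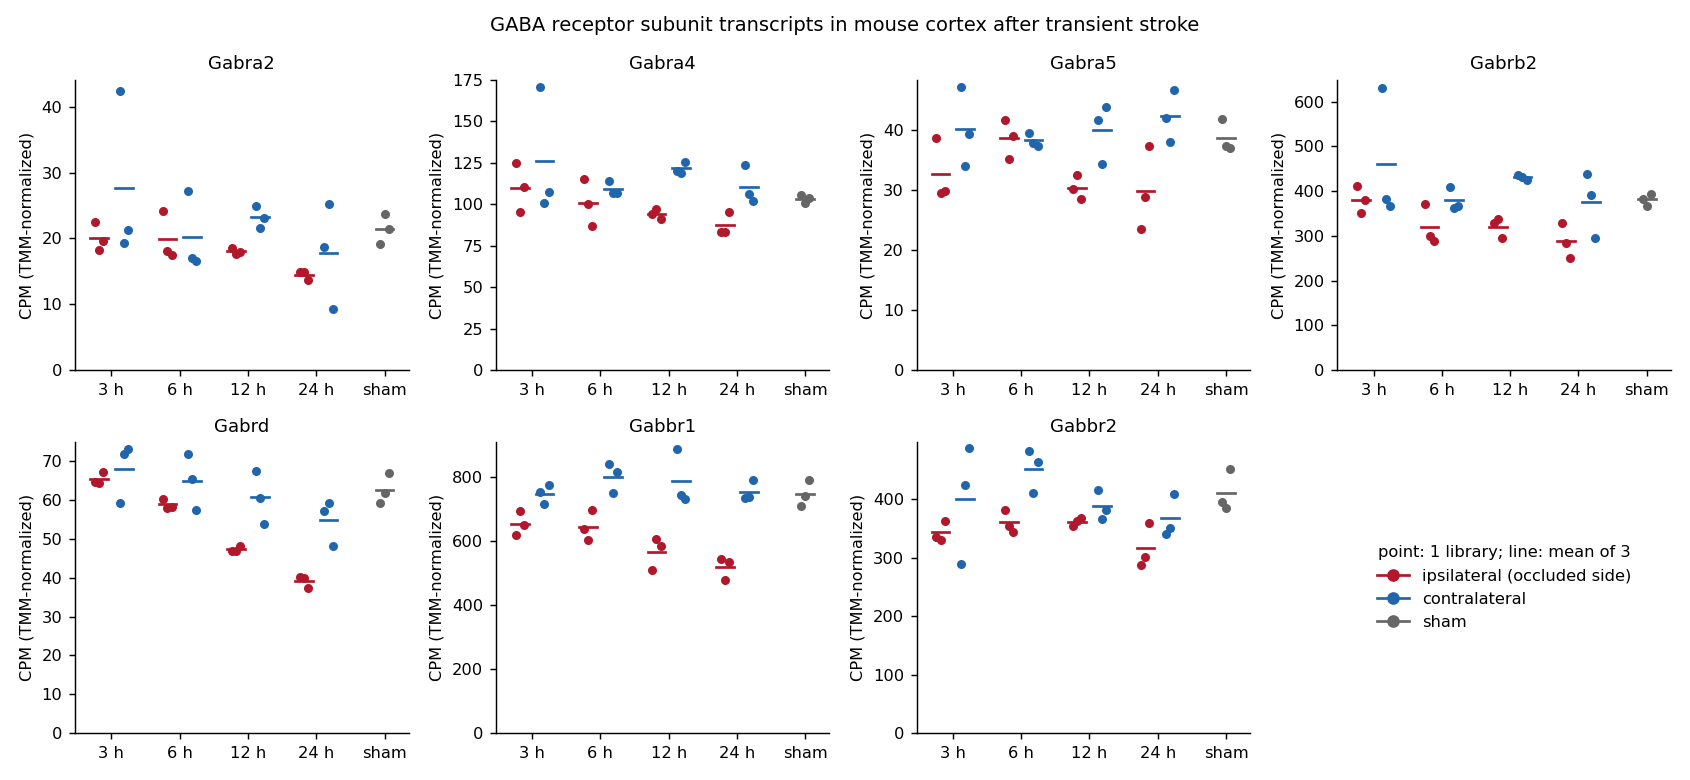
TMM-scaled CPM of the 7 subunits by reperfusion time (h), with 1 point per library, for ipsilateral, contralateral and sham cortex. Gabbr1 of ipsilateral cortex lies below every contralateral library of its time at all 4 times, and Gabrd, Gabra4 and Gabra5 at 12 h and 24 h. Gabrb2 and Gabra2 do so at 12 h only, and Gabbr2 at 6 h only. The share of all genes tested that lie apart in this way is not given here, so these placings only describe the points. Gabbr1 is at 480 to 546 CPM in ipsilateral and 736 to 791 CPM in contralateral cortex at 24 h.

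Gabbr1, which encodes the GABA-binding subunit of the GABA-B receptor, had 545.5, 479.7 and 534.8 CPM in ipsilateral cortex at 24 h, against 736.3, 738.5 and 791.1 CPM in contralateral cortex. Its levels in sham cortex were 708.8, 740.1 and 791.1 CPM. The ipsilateral libraries lay apart from both other groups, which overlapped each other. The log2 fold change against contralateral cortex was -0.54 ± 0.10 (SE, edgeR adjusted p = 0.00043, n = 3 each), and against sham cortex -0.52 ± 0.10 (edgeR adjusted p = 0.000452). At 12 h Gabbr1 had 511.2, 607.4 and 583.8 CPM in ipsilateral cortex, against 888.8, 745.3 and 731.5 CPM in contralateral cortex. These groups did not overlap, and the log2 fold change was -0.47 ± 0.10 (SE, edgeR adjusted p = 0.00192). Against sham cortex at 12 h it was -0.40 ± 0.10 (edgeR adjusted p = 0.00944), a call lost without sham replicate 3 (adjusted p = 0.0539) or ipsilateral replicate 1 (adjusted p = 0.0967). At 6 h Gabbr1 averaged 646 ± 47.4 CPM in ipsilateral and 802 ± 46.9 CPM in contralateral cortex (SD, n = 3 each), with a log2 fold change of -0.31 ± 0.10 (SE, edgeR adjusted p = 0.0475). That call was close to the threshold: it was lost with 5 of the 6 libraries left out in turn, all but ipsilateral replicate 3, at adjusted p up to 0.237, and against sham cortex the log2 fold change was -0.21 (edgeR adjusted p = 0.223). At 3 h Gabbr1 was at 655 ± 38.3 CPM in ipsilateral and 749 ± 29.2 CPM in contralateral cortex (SD, n = 3 each), a difference that missed the threshold (edgeR adjusted p = 0.49). The ipsilateral and contralateral libraries did not overlap at 3 h (620 to 696 and 718 to 776 CPM) or at 6 h (603 to 697 and 750.0 to 841 CPM) either. At 12 h and 24 h the call against contralateral cortex was kept with each library left out.

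Gabbr2, which encodes the G protein-coupling subunit of the GABA-B receptor, was not called against contralateral cortex at any time. At 24 h it had 287.1, 301.4 and 360.5 CPM in ipsilateral cortex, against 340.5, 351.8 and 410.1 CPM in contralateral cortex and 395.9, 385.8 and 452.9 CPM in sham cortex. Ipsilateral and contralateral libraries overlapped, and ipsilateral libraries were all below sham ones. The log2 fold change was -0.22 ± 0.13 against contralateral cortex (SE, edgeR adjusted p = 0.261, 95% interval -0.47 to 0.04) and -0.38 ± 0.13 against sham cortex (edgeR adjusted p = 0.0362). The sham call was lost when any of 5 of the 6 libraries was left out, all but ipsilateral replicate 3, at adjusted p up to 0.146. At 12 h Gabbr2 averaged 362 ± 7.51 CPM in ipsilateral and 389 ± 25.6 CPM in contralateral cortex (SD, n = 3 each; edgeR adjusted p = 0.687). At 6 h the means were 361 ± 19.9 and 453 ± 37.4 CPM in ipsilateral and contralateral cortex (edgeR adjusted p = 0.123), and Gabbr2 passed with the 2 libraries that stand apart left out (edgeR adjusted p = 0.0169). Neither of those 2 is a 6 h library.

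Within each library the ratio of Gabbr1 to Gabbr2 counts needs no scaling between libraries. It was 1.66 ± 0.22 in ipsilateral and 2.06 ± 0.12 in contralateral cortex at 24 h (SD, n = 3 each), with libraries of 1.48 to 1.90 and 1.93 to 2.16. At 12 h it was 1.57 ± 0.11 in ipsilateral and 2.02 ± 0.11 in contralateral cortex, with libraries of 1.45 to 1.67 and 1.91 to 2.13. The groups did not overlap at either time, and ipsilateral 24 h replicate 1, at 1.90, was the nearest to contralateral cortex. The exact two-sided permutation p was 0.1 at 12 h and at 24 h, the smallest that 3 against 3 can give, and 0.2 after Benjamini-Hochberg adjustment over the 4 times. At 3 h and 6 h the ipsilateral ratios overlapped the contralateral ones (exact permutation p = 1 at both times), with contralateral 3 h replicate 1 at 2.60. Sham libraries ran from 1.75 to 1.92, so at 12 h all 3 ipsilateral ratios were below those of sham cortex, while the contralateral ratios overlapped them. At 24 h the ipsilateral ratios overlapped those of sham cortex and all 3 contralateral ratios were above them. This ratio compares gene-level counts and not protein pairs.

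**Figure D2:**
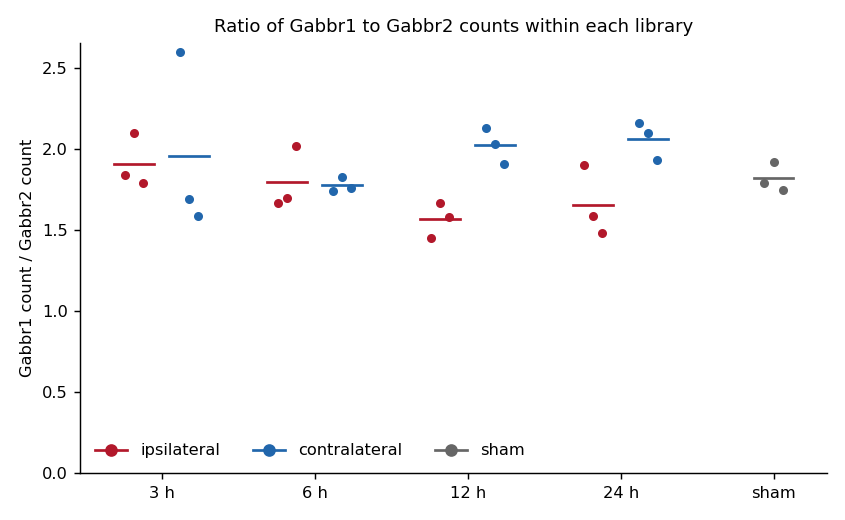
Ratio of Gabbr1 to Gabbr2 counts in each library by reperfusion time (h), with 1 point per library, for ipsilateral, contralateral and sham cortex. Ipsilateral points lie below all contralateral points at 12 h (1.45 to 1.67 in ipsilateral, 1.91 to 2.13 in contralateral cortex) and at 24 h (1.48 to 1.90 and 1.93 to 2.16), and the groups overlap at 3 h and 6 h.

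Gabrd, the delta subunit of receptors outside synapses, had 40.1, 39.9 and 37.5 CPM in ipsilateral cortex at 24 h, against 57.2, 59.2 and 48.3 CPM in contralateral cortex. Sham cortex had 59.2, 61.9 and 67.1 CPM. The ipsilateral libraries sat within a narrow range below both other groups. The log2 fold change was -0.49 ± 0.11 against contralateral cortex (SE, edgeR adjusted p = 0.00241) and -0.68 ± 0.11 against sham cortex (edgeR adjusted p = 8.4e-05), the lowest adjusted p of any of the 7 in any comparison. At 12 h Gabrd had 47.0, 46.8 and 48.2 CPM in ipsilateral cortex, against 67.6, 60.7 and 53.9 CPM in contralateral cortex, again without overlap. The log2 fold change at 12 h was -0.36 ± 0.11 against contralateral (SE, edgeR adjusted p = 0.0282) and -0.41 ± 0.11 against sham cortex (edgeR adjusted p = 0.0157). The 12 h call against contralateral cortex was lost with 5 of the 6 libraries left out in turn (adjusted p up to 0.136), all but contralateral replicate 3. That against sham cortex was lost without sham replicate 3 (adjusted p = 0.0826) or ipsilateral replicate 1 (adjusted p = 0.0719). The call against contralateral cortex at 24 h was kept with each library left out. At 3 h and 6 h Gabrd had 64.3 to 67.3 and 58.0 to 60.4 CPM in ipsilateral cortex, against 59.3 to 73.1 and 57.5 to 71.9 CPM in contralateral cortex. Those ranges overlapped, with edgeR adjusted p of 0.885 and 0.479.

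Gabra5, an alpha subunit of tonic receptors, had 23.5, 28.9 and 37.2 CPM in ipsilateral cortex at 24 h, against 42.0, 38.0 and 46.7 CPM in contralateral cortex and 41.8, 37.3 and 37.0 CPM in sham cortex. Ipsilateral libraries were all below contralateral ones, though replicate 3 came close to the lowest of them and lay within the sham range. The log2 fold change was -0.50 ± 0.14 against contralateral cortex (SE, edgeR adjusted p = 0.0159) and -0.37 ± 0.14 against sham cortex (edgeR adjusted p = 0.0637). The spread among the ipsilateral libraries was wide, with replicate 1 at -0.49 and replicate 3 at 0.51 against the mean of the other 2 on the log2 scale. The call was lost without ipsilateral replicate 1 (adjusted p = 0.102) or without contralateral replicate 3 (adjusted p = 0.063). At 12 h Gabra5 averaged 30.3 ± 1.99 CPM in ipsilateral and 39.9 ± 4.91 CPM in contralateral cortex (SD, n = 3 each), with an adjusted p of 0.07 (edgeR). These groups did not overlap (28.5 to 32.4 and 34.4 to 43.7 CPM). At 6 h the means were 38.6 ± 3.22 and 38.2 ± 1.14 CPM in ipsilateral and contralateral cortex (edgeR adjusted p = 0.97).

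Gabra4 and Gabrb2 did not pass the threshold in any comparison in the fit of all 27 libraries without the replicate block. Gabrb2, a main cortical beta subunit, had 328.6, 284.7 and 250.8 CPM in ipsilateral cortex at 24 h, against 438.1, 391.5 and 295.4 CPM in contralateral and 382.9, 366.9 and 394.5 CPM in sham cortex. The ipsilateral libraries were below all sham libraries and overlapped contralateral replicate 3. Gabra4 had 83.6, 83.4 and 95.1 CPM in ipsilateral cortex at 24 h, against 123.7, 106.3 and 102.3 CPM in contralateral cortex. Those Gabra4 groups did not overlap. At 12 h Gabrb2 had 329.4, 337.3 and 294.6 CPM in ipsilateral cortex, against 436.9, 431.8 and 424.2 CPM in contralateral cortex. Gabra4 had 94.5, 97.3 and 91.5 CPM in ipsilateral cortex at 12 h, against 120.2, 119.0 and 125.8 CPM in contralateral cortex. Neither pair of 12 h groups overlapped, and the log2 fold changes were -0.43 ± 0.15 for Gabrb2 and -0.37 ± 0.14 for Gabra4 (SE, edgeR adjusted p = 0.0677 and 0.0867). The log2 fold changes against contralateral cortex at 24 h were -0.38 ± 0.15 for Gabrb2 and -0.34 ± 0.14 for Gabra4 (SE, edgeR adjusted p = 0.0828 and 0.0876). With the replicate number as a block, which pairs same-numbered samples, Gabrb2 passed against contralateral cortex at 12 h (edgeR adjusted p = 0.0192) and 24 h (edgeR adjusted p = 0.0291), and Gabra4 passed at 12 h (edgeR adjusted p = 0.0482). Both also passed at 12 h and 24 h without the 2 libraries that stand apart, as given above. Against sham cortex at 24 h the block added Gabrb2 (adjusted p = 0.0143) and Gabra5 (adjusted p = 0.0481), for 5 of the 7, beside 4379 of all genes called in either direction against 4008 without the block. Gabra2, an alpha subunit of synapses and the lowest of the 7, had 14.9, 14.9 and 13.7 CPM in ipsilateral cortex at 24 h, against 18.7, 25.2 and 9.31 CPM in contralateral cortex. The contralateral libraries spanned the ipsilateral ones, and the log2 fold change was -0.29 ± 0.28 (SE, edgeR adjusted p = 0.505, 95% interval -0.84 to 0.26). Gabra2 was not called in any comparison.

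**Figure D3:**
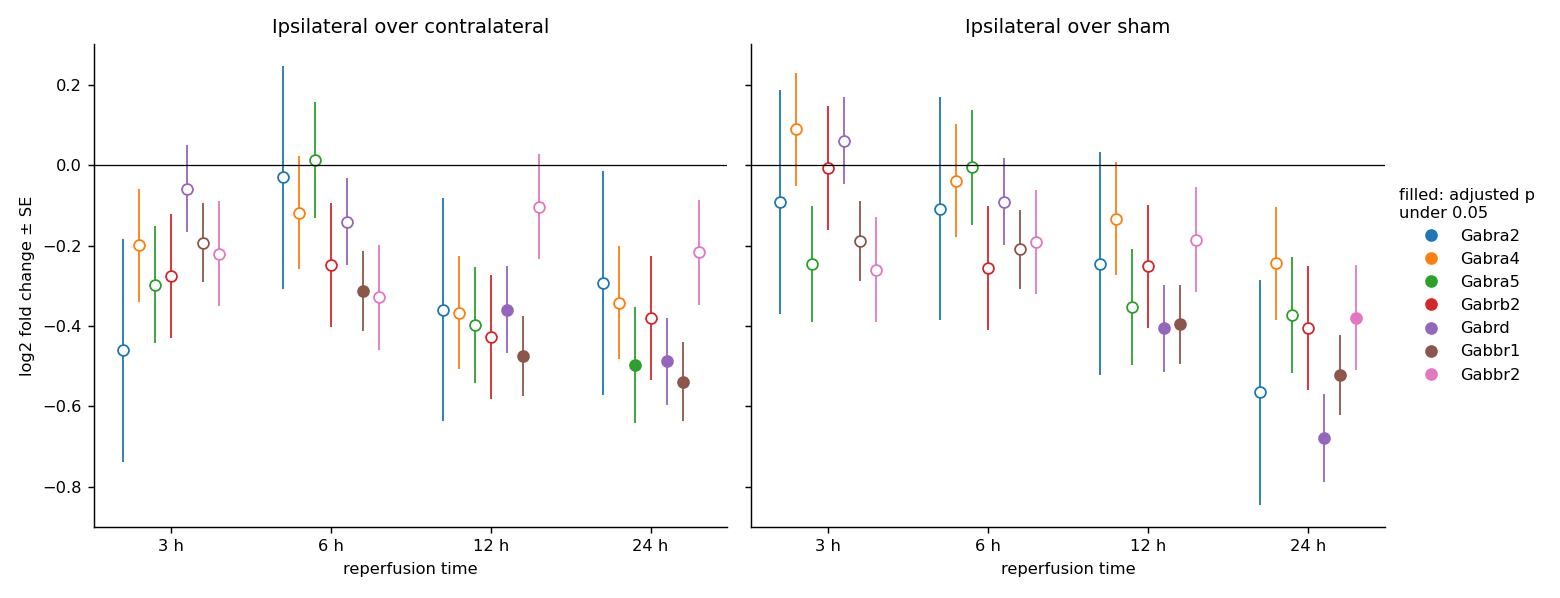
Log2 fold change of each subunit at each reperfusion time (h), for ipsilateral over contralateral and ipsilateral over sham cortex, with bars of ± SE from the edgeR fit and filled points for adjusted p under 0.05. Gabbr1 lies at -0.19, -0.31, -0.47 and -0.54 at 3, 6, 12 and 24 h against contralateral cortex, and the bars of Gabra2 are the widest.

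Against sham cortex, 3 of the 7 subunits were called lower in ipsilateral cortex at 24 h (Gabrd, Gabbr1 and Gabbr2), where 10.9% of all genes were called lower and 22.2% in either direction. At 12 h 2 of the 7 were called lower (Gabrd and Gabbr1), where 3.72% of all genes were called lower and 10.3% in either direction. At 6 h and 3 h 0 were called by edgeR, where 6.11% and 0.243% of all genes were called in either direction. At 6 h 1 member, Gabbr1, had an unadjusted p under 0.05, at 3 h 0 did, and DESeq2 called 0 at both times. These comparisons share the ipsilateral libraries with those against contralateral cortex. Contralateral cortex against sham cortex gave 0 of the 7 called by edgeR and by DESeq2 at each time, where 0.0111%, 0.0332%, 0.238% and 0.111% of all genes were called at 3, 6, 12 and 24 h. The only unadjusted p under 0.05 there was 0.0495 for Gabra4 at 3 h (edgeR adjusted p = 0.576), in the group that holds contralateral 3 h replicate 1. The log2 fold changes of the 7 over those 4 comparisons ran from -0.27 to 0.37.

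A test of whether the ipsilateral to contralateral difference changed over the 4 times called 0 of the 7 subunits by edgeR and by DESeq2, where 242 genes, 1.34% of all, were called by edgeR. Gabrd had the lowest value (unadjusted p = 0.0342, the only one under 0.05, edgeR adjusted p = 0.256). Gabbr1 had an adjusted p of 0.36 and Gabra5 of 0.39 in the same edgeR test. That a subunit was called at 24 h and not at 3 h is therefore not shown to be a change over time.

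Levels of different genes were compared per kilobase of exon. The length was that of all GENCODE M21 exons of a gene joined, 6686 bases for Gabbr2 and 6360 for Gabrb2. Their longest coding transcripts have 5750 and 3989 bases, so the level of Gabbr2 relative to Gabrb2 depends on the length used. Gabbr1 was the highest of the 7 in all 9 groups, with 67.0 ± 4.55 CPM per kb in ipsilateral and 97.3 ± 3.99 in contralateral cortex at 24 h, and 96.2 ± 5.35 in sham cortex (SD, n = 3 each). Gabbr2 and Gabrb2 came next. Their libraries overlapped in each group except ipsilateral cortex at 3 h (Gabbr2 at 49.6 to 54.4 and Gabrb2 at 55.1 to 64.6 CPM per kb) and contralateral cortex at 12 h (54.9 to 62.4 and 66.7 to 68.7), where Gabrb2 was the higher. At 24 h Gabbr2 was at 47.3 ± 5.82 and Gabrb2 at 45.3 ± 6.14 CPM per kb in ipsilateral cortex, against 55.0 ± 5.59 and 59.0 ± 11.4 in contralateral cortex. Gabrd was above Gabra4 in every group except ipsilateral cortex at 24 h, where Gabrd was at 13.6 ± 0.51 and Gabra4 at 14.4 ± 1.10 CPM per kb and their libraries overlapped. In contralateral cortex at 24 h these were 19.1 ± 2.03 and 18.2 ± 1.87, and in sham cortex 21.8 ± 1.39 and 17.0 ± 0.43, where the libraries did not overlap. Gabra5 was the sixth in each group and Gabra2 the lowest, at 1.90 ± 0.09 in ipsilateral and 2.32 ± 1.05 CPM per kb in contralateral cortex at 24 h.

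Neuron markers were lower in ipsilateral cortex too. The 16 markers summed to 4859, 4906 and 5536 CPM in ipsilateral cortex at 24 h, against 6914, 6990 and 7342 CPM in contralateral cortex, listed from low to high, and 12 of the 16 were called lower with a median log2 fold change of -0.58. At 12 h 4 of the 16 were called lower (median -0.24), at 6 h 3 (median -0.22) and at 3 h none (edgeR). Of 12 excitatory markers 6 were called lower at 24 h (median -0.50), and of 12 interneuron markers 3 were, Pvalb, Lamp5 and Cck (median -0.15). Of 10 microglia and macrophage markers 3 were called higher and 2 lower. Gabbr1 was at 102 ± 8.7 CPM per 1000 CPM of neuron markers in ipsilateral and 107 ± 7.1 in contralateral cortex at 24 h, and Gabrd at 7.72 ± 0.83 and 7.75 ± 0.75 (SD, n = 3 each). With library scaling set on the neuron markers, which moved the median log2 fold change of all genes at 24 h by 0.51, 0 of the 7 were called at any time by edgeR, and 99.6% of the genes called at 24 h were higher in ipsilateral cortex, against 51% under TMM. Gabbr1 was then at -0.02, Gabrd at 0.03 and Gabra5 at 0.00 at 24 h on the log2 scale, and Gabbr2 at 0.29 (edgeR adjusted p = 0.0614). At 12 h Gabbr1 was at -0.26 and Gabrd at -0.14 on that scale. The calls given above thus hold relative to all RNA of the tissue and were not made relative to neuron markers.

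**Figure D4:**
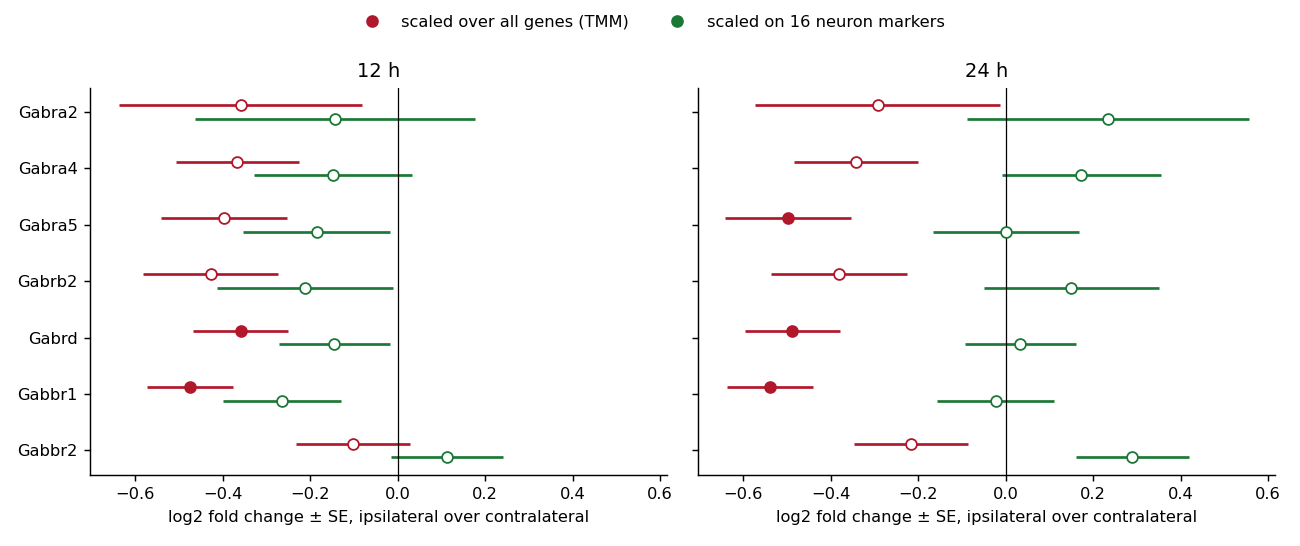
Log2 fold change of each subunit in ipsilateral over contralateral cortex at 12 h and 24 h, with bars of ± SE and filled points for adjusted p under 0.05, under TMM scaling and under scaling on 16 neuron markers. At 24 h Gabbr1 is at -0.54 under TMM and -0.02 under neuron-marker scaling, and Gabbr2 at -0.22 and 0.29.

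Other genes of GABA signalling, from lists of known members, were read in the same fit. Of 14 other GABA-A subunits 11 passed the filter and 2 were called lower in ipsilateral against contralateral cortex at 24 h, with a median log2 fold change of -0.10. Of these, Gabra3 was at 61.0 ± 6.23 and 93.4 ± 10.1 CPM in ipsilateral and contralateral cortex at 24 h (log2 fold change -0.61, edgeR adjusted p = 0.00714). Gabrb1, a beta subunit, was at -0.10 (edgeR adjusted p = 0.726), and the gamma subunits Gabrg1 and Gabrg3 at 0.23 and 0.08 (edgeR adjusted p = 0.663 and 0.795). Of the low subunits, Gabre averaged 0.61 and 0.12 CPM and Gabrr1 0.31 and 0.078 CPM in ipsilateral and contralateral cortex (edgeR adjusted p = 0.0942 and 0.084). Gabrq averaged 2.12 and 0.97 CPM and Gabrr2 1.06 and 1.50 CPM (edgeR adjusted p = 0.378 and 0.441). Gabrr2, a rho subunit, was called higher against sham cortex at 12 h and 24 h (log2 fold change 1.90 and 1.58, edgeR adjusted p = 0.00944 and 0.0178). In contralateral over sham cortex its log2 fold changes were 1.36 and 2.09 at those times and missed the threshold (edgeR adjusted p = 0.39 and 0.0906), and ipsilateral and contralateral cortex overlapped at 24 h. Gabra6, Gabrp and Gabrr3 did not pass the filter, with 52, 10 and 68 counts over all 27 libraries.

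Among 18 genes for GABA-A receptor clustering and traffic, 6 were called lower and none higher at 24 h (median log2 fold change -0.23). They included Nsf, a vesicle fusion ATPase, Nlgn2, the adhesion protein of inhibitory synapses, Shisa7, and the ATG8 family genes Gabarapl1 and Gabarapl2. Nsf had 419.1, 456.5 and 458.5 CPM in ipsilateral cortex, against 688.6, 681.9 and 683.2 CPM in contralateral cortex at 24 h (log2 fold change -0.62, edgeR adjusted p = 6.1e-05). Gephyrin (Gphn), the scaffold of inhibitory synapses, was at 51.9 ± 0.92 and 60.7 ± 5.22 CPM in ipsilateral and contralateral cortex (edgeR adjusted p = 0.0885). Ubqln1, a ubiquilin that binds the receptor, was called higher at 12 h (log2 fold change 0.80, edgeR adjusted p = 3.6e-05). Among 12 tested GABA-B partners and effectors 4 were called lower at 24 h (median -0.24): Kcnj3 and Kcnj6, subunits of the Kir3 channel, Gnai1, a G protein alpha subunit, and Kctd8, an auxiliary subunit. Kcnj3 was at 70.3 ± 5.34 CPM in ipsilateral and 106.8 ± 17.3 CPM in contralateral cortex (log2 fold change -0.60, edgeR adjusted p = 0.00949), and Kcnj3 and Kctd8 were called lower at 12 h too. Against sham cortex neither was called in ipsilateral cortex at these times. Kctd8 averaged 5.43 CPM in ipsilateral cortex at 24 h, 7.67 CPM in contralateral cortex and 5.64 CPM in sham cortex (log2 fold change of ipsilateral over sham -0.06, edgeR adjusted p = 0.833, and of contralateral over sham 0.45, edgeR adjusted p = 0.477). Kcnj3 had log2 fold changes of -0.39 in ipsilateral and 0.22 in contralateral cortex over sham cortex at 24 h (edgeR adjusted p = 0.0847 and 0.961). Rgs7 and Gnb5, regulators of G protein signalling, were at -0.31 and -0.10 (edgeR adjusted p = 0.0958 and 0.66).

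Genes of GABA synthesis, breakdown and uptake had a median log2 fold change of -0.20 over a list of 9 at 24 h. The GABA-synthesising enzymes Gad1 and Gad2 had log2 fold changes of -0.21 and 0.25 (edgeR adjusted p = 0.24 and 0.49), and the vesicular transporter Slc32a1 one of -0.13 (edgeR adjusted p = 0.699). The transporter Slc6a13 averaged 4.02 and 8.23 CPM and Slc6a12 1.88 and 1.01 CPM in ipsilateral and contralateral cortex (edgeR adjusted p = 0.057 and 0.0968). Abat, Aldh5a1 and Slc6a11 had log2 fold changes of -0.22, -0.20 and -0.19, with edgeR adjusted p of 0.296, 0.195 and 0.589. Of 9 genes of chloride transport and its kinases 2 were called lower at 24 h (list median -0.21), Slc12a5 and Stk39. Slc12a5, which encodes the chloride exporter KCC2, had 456.3, 439.9 and 485.7 CPM in ipsilateral cortex, against 620.3, 617.5 and 678.9 CPM in contralateral cortex (log2 fold change -0.47, edgeR adjusted p = 0.00127). Slc12a2, which encodes the importer NKCC1, was at 74.8 ± 2.89 and 72.7 ± 10.2 CPM in ipsilateral and contralateral cortex (log2 fold change 0.04, edgeR adjusted p = 0.901). The chloride channel gene Clcn2 was at -0.36 (edgeR adjusted p = 0.0579), Clcn3 at -0.08 (0.736) and the kinase gene Wnk1 at 0.24 (0.143).

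**Figure D5:**
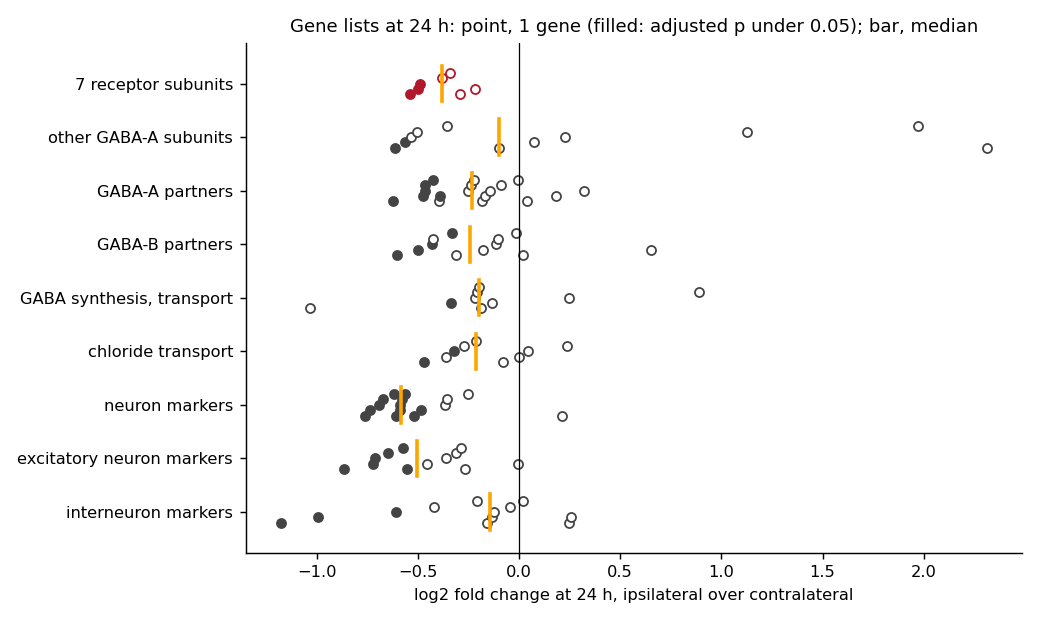
Log2 fold change of each tested gene in ipsilateral over contralateral cortex at 24 h, by list, with the 7 receptor subunits beside related genes and neuron markers 1 point per gene (filled for adjusted p under 0.05) and a bar at each list's median. The medians are -0.38 for the 7 subunits, -0.10 for the other GABA-A subunits and -0.58 for the neuron markers.

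Likeness was measured as the root mean square log2 difference between 2 genes' centred means over the 9 groups, among 10908 genes of at least 5 CPM. The pattern nearest to that of Gabbr1 was that of Slc22a17, at 0.03, followed by Syngr1, a synaptic vesicle protein, and Cadm3, an adhesion protein, against 0.21 for the spread of Gabbr1 itself. Gabrd was nearest to Ralyl, at 0.05, and Psap, at 0.08, was among the 3 nearest to Gabra5. Gabra4 was nearest to Kcnk4 (0.04), Gabrb2 to Atp13a5 (0.04), Gabbr2 to Mgat5 (0.04) and Gabra2 to B3galt1 (0.07). Among the subunits the closest pair was Gabra4 and Gabrb2, at 0.06, and the farthest was Gabra2 and Gabra5, at 0.21. Depth and the libraries that stand apart are shared by all genes compared in this way.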

How the data were processed

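Total RNA of mouse cortex was depleted of rRNA and sequenced, per the labels' protocols. The authors deposited whole-number read counts per gene. Per the submitters' processing notes, STAR 2.5.0a, featureCounts 1.4.3-p1, edgeR and the build mm10 were named. The annotation, the strand setting and the use made of edgeR are not stated in the labels and notes used here. From the counts, edgeR 4.0.16 (R 4.3.3) was run on all 27 libraries (9 groups of 3, 18 residual degrees of freedom), with TMM scaling, filterByExpr (minimum count 10, total 15, which removed 0.0116% of counts) and the quasi-likelihood test. P-values were Benjamini-Hochberg adjusted over 18087 genes at 0.05. The time test asked whether the ipsilateral to contralateral difference varied over 4 times. Scripts were tested on simulated data.

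The members and lists were chosen with earlier results of these data known. Genes named were the 7 members, other GABA-A subunits, of each list up to 4 with the smallest p at 24 h and at 12 h, and for each member the 3 genes most like it, of which 1 to 3 are printed. Gabarapl1, Shisa7, Gphn, Gad1, Gad2, Slc32a1 and Slc12a2 were named after their values were seen. Some listed genes are not reported here. Kctd12 and Ly6g were not analysed here, and Drd1 was read under Drd1a. The series design ties replicate numbers to surgery days, and the replicate block uses that number across all groups. Whether a number stands for the same day in every group was not tested. Same-numbered ipsilateral and contralateral samples had a mean correlation of 0.09 in their deviations, against -0.04 for other numbers, and 6 of 12 pairs were over 0.1. Alternatives were RLE scaling, other filters, the replicate block, scaling on neuron markers, leaving out each library, leaving out contralateral 3 h replicate 1 and ipsilateral 24 h replicate 1 together, fits of only the groups compared and DESeq2 1.42.0. P-values measure only the spread between these samples. Where the libraries of groups are said not to overlap, the share of all genes for which this holds is not given.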

Additional observations from a re-analysis of the deposited data

Results flagged for a closer look

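Nsf, from the list of GABA-A receptor traffic genes, differed between times in its ipsilateral to contralateral difference (edgeR test over the 4 times, adjusted p = 0.0247). Its log2 fold changes were 0.06, -0.12, -0.28 and -0.62 at 3, 6, 12 and 24 h, and at 24 h all 3 ipsilateral libraries were below all 3 contralateral ones.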

How the results depend on the processing

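Over the 91 member results and 1400 alternative values, 1339 kept their direction or missed the threshold as before, 32 lost a call, 25 gained one and 4 reversed. A change of sign counted as reversed only where the main or the alternative value was called, and otherwise as kept. Gabbr2 against contralateral cortex at 24 h was negative under TMM and positive under scaling on neuron markers. It was called under neither and is not among the 4. The cause of each change was not tested. All 4 reversals came from scaling on neuron markers: against contralateral cortex at 24 h Gabra5 was at 0.0011 and Gabrd at 0.033, and against sham cortex at 24 h Gabbr1 was at 0.013 and Gabbr2 at 0.15 (log2). That scaling left 0 members called in each comparison, and of the genes called at 24 h against contralateral cortex 99.6% were then higher, against 51% under TMM.

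Of members against contralateral cortex, the 6 h count of 1 was 0 with RLE scaling (Gabbr1 adjusted p = 0.0502), 0 without a filter, 2 without the 2 libraries that stand apart and 2 with only the groups compared. The 12 h count of 2 was 4 with the replicate block, 5 without the 2 libraries and 6 with only the groups compared. The 24 h count of 3 was 2 with only the groups compared, where Gabra5 was lost (edgeR adjusted p = 0.0622). In the fits of only the groups compared, 2665 and 2433 of all genes were called at 12 h and 24 h, against 2214 and 3455 in the main fit. Against sham cortex at 24 h the count of 3 was 5 with the replicate block and 5 with only the groups compared. Of all genes 4379 and 3877 were called in those fits, against 4008 in the main fit. Leaving out each library in turn gave 0 to 1, 1 to 2 and 2 to 3 called at 6, 12 and 24 h against contralateral cortex, and 0 to 2 and 2 to 4 at 12 and 24 h against sham cortex. The replicate block changed no call of a member beyond those given in the report.

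Counts over all genes moved too. For ipsilateral against contralateral cortex at 3 h, 45 became 28 (neuron scaling), 29 (2 libraries left out), 18 (only the groups compared) and 128 (DESeq2); at 6 h 1445 became 2455 (2 libraries) and 2445 (groups); at 12 h 2214 became 3468 (2 libraries); at 24 h 3455 became 9200 (neuron). Against sham cortex, 44 became 139 (2 libraries), 240 (groups) and 166 (DESeq2) at 3 h, 1106 became 2209 (neuron), 1944 (2 libraries) and 2117 (groups) at 6 h, 1864 became 4487, 3121 and 3034 in that order at 12 h, and 4008 became 9832 (neuron) at 24 h. Contralateral against sham cortex at 3 h gave 2, against 4 (RLE), 6 (no filter), 5 (a filter of 1 CPM in 3 libraries), 6 (block), 0 (neuron), 1 (2 libraries), 1 (groups) and 39 (DESeq2). At 6 h 6 became 2 (neuron), 27 (groups) and 21 (DESeq2). At 12 h 43 became 28 (neuron), 151 (2 libraries), 238 (groups) and 141 (DESeq2), and at 24 h 20 became 4, 60, 83 and 64 in that order. The time test's 242 became 411 (block), 2574 (neuron), 526 (2 libraries), 146 (groups) and 797 (DESeq2).

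With each library left out in turn, ipsilateral against contralateral cortex gave 20 to 132, 516 to 1643, 889 to 2406 and 2231 to 2995 genes at 3, 6, 12 and 24 h. Ipsilateral against sham cortex gave 11 to 28, 423 to 1216, 760 to 1960 and 2464 to 3219. Contralateral against sham cortex gave 1 to 4, 0 to 3, 8 to 44 and 1 to 19, and the time test 103 to 475. Where a group kept 1 library fewer, the spread was shared over all groups. How depth limits the subunits was not compared.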
